A study of Mus musculus with 6 samples.

Results

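The genes described here were 10 genes of glucose uptake and glycolysis, chosen by symbol from a table of 32285 gene rows: the glucose transporters Slc2a1 and Slc2a3, the hexokinases Hk1 and Hk2, and the enzymes Pfkp, Aldoa, Pgk1, Eno1, Pkm and Ldha. All 10 had enough counts to be tested among 17307 genes. RNA was sequenced from CD4+CD25+ Tregs sorted from the spleen of C57BL/6 mice, with 3 WT and 3 KO libraries. KO Tregs came from ERCre Zfp335fl/fl mice, in which tamoxifen activates a Cre that is not restricted to Tregs, so that floxed Zfp335 was deleted in other cells of the mouse as well. The methods of the study describe the WT mice as ERCre mice that also received tamoxifen, whereas the sample labels describe wild-type littermates and give no treatment. If the WT mice lacked Cre or tamoxifen, these cannot be told apart from the loss of Zfp335. According to those methods, mice were 6 weeks old, received 3 injections of tamoxifen (100 µL each, 10 mg/mL), and were examined on day 7. No source used here said whether each library came from a separate mouse, so p-values measured the spread between these libraries, which may be technical.

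Glycolysis splits glucose into pyruvate in the cytosol and yields ATP, NADH and building blocks without oxygen. Transporters of the GLUT family admit glucose, hexokinase traps it as glucose 6-phosphate, phosphofructokinase commits it to breakdown, and lactate dehydrogenase turns pyruvate into lactate while renewing NAD+. T cells raise glucose uptake when activated, and Tregs are known to draw on both glycolysis and mitochondrial oxidation of fatty acids and pyruvate.

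In KO Tregs, 3 of the 10 transcripts were called higher. Slc2a1, which encodes the transporter GLUT1, rose by 35.2%, and Hk2, the inducible hexokinase, rose by 48.1%. Pkm, the pyruvate kinase of T cells, was higher by a log2 fold change of 0.17 with an adjusted p of 0.0498, at the edge of the threshold. The other 7 genes did not pass the test. None of the 10 was called lower. These 3 of 10 were called at an adjusted p under 0.05, beside 24.1% of all genes tested in either direction, 12.0% of all genes called higher and 12.1% called lower. None of the 10 passed the stricter rule of a 1.5-fold difference with p under 0.05 and adjusted p under 0.1, which 6.95% of all genes passed. The median log2 fold change of the 10 genes was 0.065, and 7 of 10 values were positive. Over all genes tested the median was -0.0042, and 8513 of 17307 values were positive.

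The knockout was visible in every library. Zfp335 was 124.4, 120.7 and 115.2 CPM (counts scaled to the library's TMM-adjusted total) in WT libraries and 15.0, 14.3 and 15.1 CPM in KO libraries. It fell by 3.02 on the log2 scale (SE 0.046, adjusted p = 1.2e-13). The libraries held 133283969 to 209041812 counts. The cells carried their defining transcripts in both groups, with Foxp3 at 1136 ± 17.4 CPM in WT and 1052 ± 9.24 CPM in KO libraries (SD, n = 3). Of 6 Treg and CD4 T cell markers, Ctla4 was called higher and Foxp3 and Il2ra lower. Of 8 effector Treg markers, 2 (Tnfrsf4 and Tnfrsf9) were called higher and 3 (Icos, Klrg1 and Cxcr3) lower.

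Marker transcripts of B cells and red cells, and most of those of myeloid cells, were fewer in KO libraries. All 6 B cell markers and all 7 red cell markers were called lower, as were 7 of 8 myeloid markers, with Csf1r, a macrophage receptor, not called (log2 fold change 0.22). Their summed levels per library were 57.9 to 63.1 CPM in WT and 27.7 to 29.1 CPM in KO for B cells, 45.8 to 55.1 and 21.2 to 22.6 CPM for myeloid cells, and 37.3 to 44.4 and 1.89 to 2.33 CPM for red cells. CD8 T and NK cell markers summed to 15.4 to 16.5 CPM in WT and 14.6 to 16.0 CPM in KO libraries, and 1 of 5 was called lower. Of 4 platelet markers only Itga2b was abundant enough to test, and it was called higher (log2 fold change 0.35), other than without WT replicate 2, KO replicate 1 or KO replicate 3 (adjusted p of up to 0.109). Among 8 proliferation markers, 6 were called lower and 1, Pcna, higher, with sums of 701 to 769 CPM in WT and 653 to 688 CPM in KO libraries. The part of these differences in the results on glycolytic genes was not tested. In bulk RNA, fewer cells of a type and less RNA per cell cannot be told apart.

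The promoters of Slc2a1 and Hk2 are shown as examples of genes whose transcripts were called higher. The first promoter of Ldha is shown as that of a gene whose transcript was not called. Pkm was also called higher, at the edge of the threshold, but its promoters are not shown. The sequences are from RefSeq on build GRCm38.p6 and run from 250 bases before to 50 bases after the annotated start, in the direction of transcription. They lie at chr4:119108495-119108794 on the plus strand for Slc2a1, chr6:82774405-82774704 on the minus strand for Hk2, and chr7:46845554-46845853 on the plus strand for Ldha. Capitals mark ACGTG and GCGTG, the core letters of hypoxia response elements to which HIF-1 can bind, on either strand, where the other strand reads as CACGT and CACGC.
Slc2a1: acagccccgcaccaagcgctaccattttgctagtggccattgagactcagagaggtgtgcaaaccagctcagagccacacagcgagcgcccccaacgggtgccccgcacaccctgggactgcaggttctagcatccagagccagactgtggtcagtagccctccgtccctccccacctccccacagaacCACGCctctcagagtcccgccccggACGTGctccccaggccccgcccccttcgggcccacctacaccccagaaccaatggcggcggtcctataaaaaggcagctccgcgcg
Hk2: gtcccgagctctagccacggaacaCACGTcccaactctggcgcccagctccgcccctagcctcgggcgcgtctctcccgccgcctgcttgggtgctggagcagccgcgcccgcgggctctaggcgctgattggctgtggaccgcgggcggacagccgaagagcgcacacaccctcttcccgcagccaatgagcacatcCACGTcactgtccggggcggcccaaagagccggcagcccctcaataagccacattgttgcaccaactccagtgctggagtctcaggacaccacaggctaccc
Ldha: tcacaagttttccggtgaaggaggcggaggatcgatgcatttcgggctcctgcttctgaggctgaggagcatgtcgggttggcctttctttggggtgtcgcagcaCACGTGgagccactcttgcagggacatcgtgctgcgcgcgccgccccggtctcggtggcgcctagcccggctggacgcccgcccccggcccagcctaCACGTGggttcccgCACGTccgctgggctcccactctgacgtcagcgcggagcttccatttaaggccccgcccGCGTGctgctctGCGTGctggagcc

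Slc2a1 held 1 match to ACGTG and 1 to GCGTG, Hk2 held 2 to ACGTG, and the first Ldha promoter held 5 and 2. For Pkm, whose promoters are not shown, the first held 0 matches and the second held 2 to ACGTG. The E-box CACGTG, to which Myc and the carbohydrate-responsive factor ChREBP can bind, contains ACGTG on both strands, so each of the 2 E-boxes of Ldha counts as 2 of its 5 matches. Of the 10 genes, 9 had 16 promoters in the RefSeq table, and Slc2a3 had no entry. At least 1 match to ACGTG or GCGTG was present in 13 of the 16 promoters and in all 9 genes, called or not. The first promoters of Hk1, Aldoa and Pkm held none. Promoters 2 and 3 of Aldoa overlap and share their match, and those of Eno1 overlap and share theirs. The count over genes takes a match in any promoter of a gene, whereas the shares given next are of single promoters. ACGTG and GCGTG are common, since 43.8% of all 32851 promoters of the same length held at least 1 of them. ACGTG was present in 19.6%, GCGTG in 32.4% and the E-box in 7.15%. A match is a description of the sequence and does not show that a factor binds there.

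**Figure D1:**
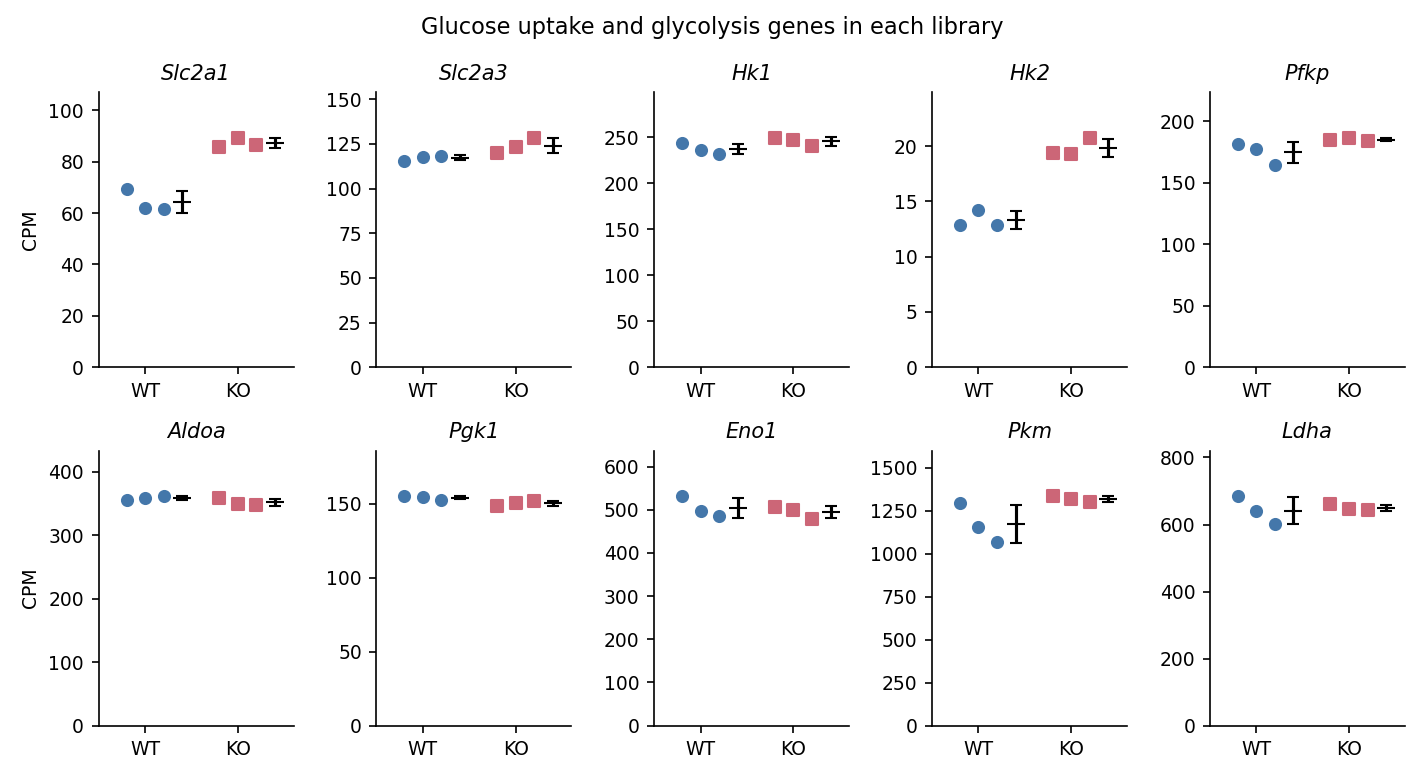
CPM of the 10 genes in each library, with WT libraries 1 to 3 as blue circles and KO libraries 1 to 3 as red squares from left to right, and the mean with SD in black beside each group (n = 3). Each vertical axis starts at 0. The 3 KO libraries lay above all WT libraries for Slc2a1, Slc2a3, Hk2, Pfkp and Pkm, and the gap was wide only for Slc2a1 and Hk2.

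Glucose transporters were examined first. Slc2a1 (chr4:119108711-119137983, plus strand) encodes GLUT1, the transporter that T cells put on their surface upon activation. Its level was 69.5, 62.0 and 61.7 CPM in WT libraries and 85.6, 89.3 and 86.6 CPM in KO libraries. Every KO library lay above every WT library, and the lowest KO value exceeded the highest WT value, that of WT replicate 1, by more than either group spread. The mean went from 64.4 ± 4.38 to 87.2 ± 1.89 CPM (SD, n = 3), a log2 fold change of 0.44 (SE 0.047, 95% interval 0.33 to 0.54, adjusted p = 1.79e-05).

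Slc2a3 (chr6:122727809-122801640, minus strand) encodes GLUT3, a transporter of high affinity that serves resting lymphocytes and neurons. It was 115.6, 117.8 and 118.2 CPM in WT libraries and 120.1, 123.3 and 128.4 CPM in KO libraries. Its KO libraries also lay above WT, but narrowly, as they did for 5 of the 10 genes and for 19.3% of all genes tested. The log2 fold change of 0.081 (SE 0.036, 95% interval 0.0040 to 0.16) was not called (adjusted p = 0.124). The log2 ratio of Slc2a3 to Slc2a1 CPM within a library was therefore lower in KO, with 0.73, 0.92 and 0.94 in WT libraries and 0.49, 0.47 and 0.57 in KO libraries. The ratios did not overlap and their means differed by -0.36. An exact two-sided permutation test gave p = 0.1, the smallest p that 3 against 3 libraries allow.

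Hexokinases were examined next. Hk2 (chr6:82725025-82774454, minus strand) encodes the hexokinase that growth factors and T cell activation induce and that can sit on the outer mitochondrial membrane. Its level was 12.9, 14.3 and 12.9 CPM in WT libraries and 19.3, 19.3 and 20.8 CPM in KO libraries. The groups were far apart beside their spread, with means of 13.3 ± 0.804 and 19.8 ± 0.820 CPM (SD, n = 3). The log2 fold change of 0.57 (SE 0.061, 95% interval 0.43 to 0.70, adjusted p = 1.86e-05) was the highest among the 10 genes.

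Hk1 (chr10:62268855-62379908, minus strand), the hexokinase of most resting tissues, was 243.3, 235.8 and 231.9 CPM in WT libraries and 249.1, 247.0 and 239.9 CPM in KO libraries. Its groups overlapped, since KO replicate 3 lay below WT replicate 1. The log2 fold change was 0.049 (SE 0.033, 95% interval -0.022 to 0.12, adjusted p = 0.321), so a rise of the size seen for Hk2 lies outside its interval. The log2 ratio of Hk2 to Hk1 CPM rose from -4.15 ± 0.098 to -3.63 ± 0.087 (SD, n = 3), a difference of 0.52 with an exact permutation p = 0.1, again the smallest possible. Hk2 nevertheless stayed the minor form in both groups, at 2.42 ± 0.146 CPM per kb in WT and 3.59 ± 0.149 CPM per kb in KO libraries, beside 61.5 ± 1.51 and 63.7 ± 1.25 CPM per kb for Hk1 (SD, n = 3).

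Pfkp encodes the platelet-type subunit of phosphofructokinase, the enzyme of the committed step, and lies at chr13:6579768-6648777 on the minus strand. It was 181.6, 177.5 and 164.7 CPM in WT libraries and 184.5, 186.4 and 184.0 CPM in KO libraries. The KO libraries were close to one another and just above WT replicate 1, and the log2 fold change of 0.082 (SE 0.038) was not called (adjusted p = 0.146). Exons of Pfkp overlap those of Pitrm1 on the other strand, and 5.10% of its 50-base stretches occur there. Exons of Slc2a1, Hk1 and Aldoa likewise overlap those of Gm12868, Hk1os and Fam57b on the other strand. Of the 50-base stretches of Slc2a1, 1.54% occur in Gm12868, and of those of Hk1, 1.22% occur in Hk1os. Reads of these overlapping genes could be mixed if counting ignored strand.

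Aldoa, Pgk1 and Eno1 carry the middle of the pathway. Aldoa, the main aldolase, was 355.4, 358.6 and 361.0 CPM in WT libraries and 358.5, 348.7 and 346.9 CPM in KO libraries. KO replicate 1 lay among the WT libraries, and the log2 fold change was -0.028 (95% interval -0.094 to 0.038, adjusted p = 0.565). Aldoa lies at chr7:126795234-126800751 on the minus strand. A second row with this symbol held at most 74 counts in a library and was not used.

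Pgk1, phosphoglycerate kinase, makes the first ATP of the pathway and lies on chromosome X (chrX:106187100-106203699, plus strand). It was 154.8, 154.7 and 152.5 CPM in WT libraries and 148.4, 150.2 and 151.8 CPM in KO libraries. All 3 KO values lay below the WT values, as for 19.1% of all genes tested, but by little. The log2 fold change of -0.037 (95% interval -0.10 to 0.031) was not called (adjusted p = 0.45). Xist, which is transcribed from the inactive X chromosome, was 0.187 to 0.424 CPM in WT libraries and 124 to 145 CPM in KO libraries. The sex of the cells and the genotype therefore cannot be told apart in any of these comparisons. Of the 50-base stretches of Pgk1, 53.9% also occur in other genes, nearly all of them in the processed copy Pgk1-rs7, which is not listed in the count table.

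Eno1 (chr4:150236721-150248879, plus strand), the enolase of most tissues, was 530.9, 497.3 and 485.6 CPM in WT libraries and 506.6, 500.4 and 479.6 CPM in KO libraries. KO replicate 3 lay below the WT range and the other KO libraries within it, and the log2 fold change was -0.026 (95% interval -0.11 to 0.057, adjusted p = 0.685). Its near-identical copy Eno1b, which shares 25.3% of the 50-base stretches of Eno1, was called lower, at 46.6 ± 1.91 CPM in WT and 40.1 ± 4.26 CPM in KO libraries (SD, n = 3), with a log2 fold change of -0.22 (adjusted p = 0.029). The call for Eno1b rested on overlapping libraries and was lost without any 1 of WT replicates 1, 2 and 3 or KO replicates 1 and 2, with adjusted p of up to 0.136. Reads of these genes may have been split by the counting.

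Pkm (chr9:59656368-59679375, plus strand) encodes both splice forms of the pyruvate kinase of lymphocytes, which the gene counts do not separate. Of its 50-base stretches, 25.8% occur in other genes, among them Gm6560, Gm6992 and Gm49759, the last of which overlaps Pkm exons on the same strand, so its reads may have been split by the counting. Pkm was 1293, 1156 and 1070 CPM in WT libraries and 1334, 1321 and 1298 CPM in KO libraries. KO replicate 3 lay just above WT replicate 1, while WT replicates 2 and 3 lay clearly lower. The mean went from 1173 ± 112 to 1318 ± 18.0 CPM (SD, n = 3), a log2 fold change of 0.17 (SE 0.056, 95% interval 0.045 to 0.29). The call was lost in 12 of 21 alternative settings, with adjusted p from 5.29e-05 to 0.146 over all of them. It was lost without any library other than WT replicate 1, and the log2 fold change was 0.24 without WT replicate 1 and 0.11 without WT replicate 3.

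Ldha (chr7:46841475-46855627, plus strand) encodes the lactate dehydrogenase subunit that favours lactate production. It was 684.1, 640.3 and 601.0 CPM in WT libraries and 660.7, 647.6 and 642.5 CPM in KO libraries. All KO libraries lay within the WT range, and the log2 fold change was 0.019 (95% interval -0.073 to 0.11, adjusted p = 0.805), with a sign that turned to -0.012 with library size alone as the scale and to -0.026 without WT replicate 3. Ldhb, whose subunit favours the reverse reaction, was called higher, from 42.2 ± 1.88 to 49.4 ± 0.423 CPM (SD, n = 3), a log2 fold change of 0.22 (adjusted p = 0.00187). The log2 ratio of Ldha to Ldhb CPM was 3.95, 3.92 and 3.90 in WT libraries and 3.74, 3.70 and 3.71 in KO libraries, with no overlap and an exact permutation p = 0.1, the smallest possible.

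WT replicate 1 had the highest and WT replicate 3 the lowest WT value for 7 of the 10 genes, namely Slc2a1, Hk1, Pfkp, Pgk1, Eno1, Pkm and Ldha. For Hk2, Slc2a3 and Aldoa the WT order differed. The KO libraries also fell from replicate 1 to replicate 3 for Hk1, Eno1, Pkm and Ldha, but not for Slc2a1, Pfkp and Pgk1. The summed level of the 10 genes was 3641, 3414 and 3260 CPM in WT libraries and 3667, 3633 and 3579 CPM in KO libraries, so that WT replicate 1 lay among the KO libraries. Slc2a1 and Hk2 together summed to 82.3, 76.3 and 74.6 CPM in WT and 105.0, 108.6 and 107.3 CPM in KO libraries, with no overlap. They thus made up a small part of the summed CPM, which is not corrected for length. Genes outside the list whose log2 CPM followed the mean z score of the 10 genes most closely over the 6 libraries included Rps14, Ykt6, Gm47882 and Btbd6, with Pearson r from 0.995 to 0.996 among 5719 candidates. This likeness is a description over 6 libraries of both groups, whose values for all genes come from the same libraries, and none of these 4 genes was called in KO against WT.

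Levels of different genes were compared per length, as CPM per kb of the principal transcript. In WT Tregs, Pkm was at 482 ± 46.1, Ldha at 363 ± 23.5, Eno1 at 249 ± 11.6 and Aldoa at 237 ± 1.86 CPM per kb (SD, n = 3). The lowest WT library for Eno1 (239.6) stood just above the highest for Aldoa (238.9). Pgk1 followed at 84.4 ± 0.705, Hk1 at 61.5 ± 1.51 and Pfkp at 42.1 ± 2.12 CPM per kb. Slc2a3 was at 29.6 ± 0.358, Slc2a1 at 19.8 ± 1.34 and Hk2 at 2.42 ± 0.146 CPM per kb, each apart from its neighbours. The order of the means was the same in KO Tregs, where Slc2a1 stood at 26.7 ± 0.580 CPM per kb. The KO libraries of Eno1 and Aldoa overlapped, with Eno1 at 236.6 in KO replicate 3 and Aldoa at 237.2 in KO replicate 1. Per kb of all annotated exons, Aldoa (123 CPM per kb) came above Eno1 (93.8) in WT Tregs. Slc2a1 (18.4) came above Slc2a3 (16.2), and both above Pfkp (13.0), so the order of these genes depends on the length used. The sequence that Pgk1, Eno1 and Pkm share with other genes may also affect their levels, which was not tested.

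**Figure D2:**
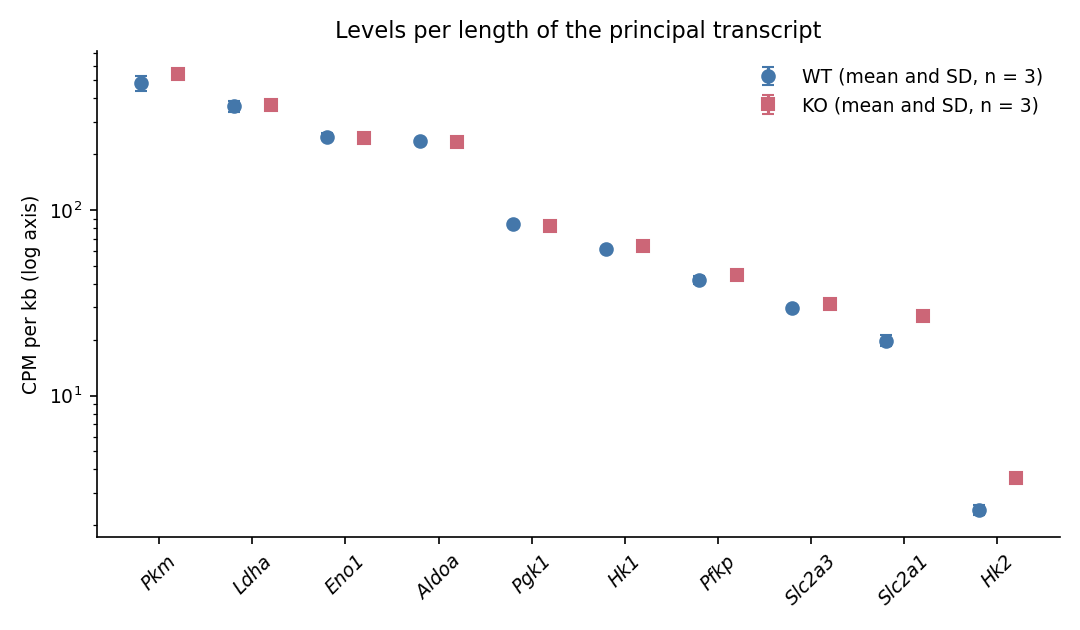
Level of each of the 10 genes as CPM per kb of the principal transcript, on a log axis, as mean and SD of 3 WT libraries (blue circles) and 3 KO libraries (red squares). Genes are ordered by their WT level, from Pkm at 482 to Hk2 at 2.42 CPM per kb, and Slc2a1 and Hk2 show the wide gaps between groups.

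Other genes of the same steps were then examined, of which 22 of 26 had enough counts. In KO Tregs, 5 were called higher and 4 lower, and the median log2 fold change was 0.072. These counts, and those of the lists below, stand beside 12.0% of all genes tested called higher and 12.1% called lower. Among transporters, Slc2a9, which carries urate and glucose, was called higher (log2 fold change 0.21, adjusted p = 0.0184) and Slc2a6 lower (-0.37, adjusted p = 0.0373), from 3.56 ± 0.445 to 2.72 ± 0.164 CPM (SD, n = 3). Slc2a8 had a log2 fold change of 0.21 and missed the threshold (adjusted p = 0.0526). The call for Slc2a6 was lost in 7 of 21 alternatives, among them without WT replicate 2 or 3 or any KO library (adjusted p of up to 0.131), and that for Slc2a9 in 3 of 21, each of the latter without 1 library (WT replicate 2, KO replicate 2 or KO replicate 3, adjusted p of up to 0.105). Slc2a8 gained a call in 4 of 21 alternatives, namely DESeq2, a minimum of 1 CPM in 3 libraries, the replicate number as a term, and without WT replicate 1 (adjusted p down to 0.0111).

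Adpgk, the ADP-dependent glucokinase of T cells, was called higher, from 105.3 ± 1.73 to 119.2 ± 2.04 CPM (SD, n = 3), a log2 fold change of 0.18 (adjusted p = 0.00172). Its libraries did not overlap. Hk3, the hexokinase of myeloid cells, was at 2.27 ± 0.206 CPM in WT and 1.87 ± 0.204 CPM in KO libraries and was not called. Pfkl, the liver-type phosphofructokinase subunit, was called higher (log2 fold change 0.22, adjusted p = 0.0381), from 100.1, 87.6 and 79.7 CPM in WT libraries to 106.8, 104.7 and 101.7 CPM in KO libraries. As for Pkm, KO libraries lay just above WT replicate 1, and the call for Pfkl was lost in 8 of 21 alternatives, among them without WT replicate 2 or any KO library (adjusted p of up to 0.116). The log2 ratio of Pfkp to Pfkl CPM went from 0.97 ± 0.101 to 0.83 ± 0.034 (SD, n = 3), with an exact permutation p = 0.1, the smallest possible. Pfkm, the muscle-type subunit, had a log2 fold change of 0.091 (adjusted p = 0.248).

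Lower down the pathway, Bpgm, which diverts an intermediate to 2,3-bisphosphoglycerate, was called higher (log2 fold change 0.26, adjusted p = 0.00339), from 18.6 ± 0.303 to 22.3 ± 1.07 CPM (SD, n = 3). Aldoc, a minor aldolase best known from brain, was called lower (-0.58, adjusted p = 7.78e-04), from 5.71 ± 0.481 to 3.82 ± 0.269 CPM. Eno3, the muscle-type enolase, was also called lower (-0.20, adjusted p = 0.00418). Pklr, the pyruvate kinase of red cells and liver, was lower with 57, 80 and 32 counts in WT libraries and 2, 10 and 8 counts in KO libraries (-3.24, adjusted p = 6.64e-04), beside red cell markers that were all lower. The part of red cell RNA in this difference was not tested.

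The remaining core enzymes were not called. Gpi1, the isomerase after hexokinase, was at 615 ± 32.6 CPM in WT and 649 ± 13.8 CPM in KO libraries (log2 fold change 0.078). Gapdh, often used as a reference transcript, was at 122.7 ± 7.42 and 118.2 ± 1.54 CPM (-0.054, adjusted p = 0.411). Tpi1 (0.066) and Pgam1 (0.056), the triosephosphate isomerase and phosphoglycerate mutase, had small positive values, and Pgam2 (-0.18) and Eno2 (-0.058) negative ones. Slc2a2, Slc2a4 and Gapdhs, forms known from liver, muscle or testis, had mean levels under 1 CPM in both groups and were not called, and Hkdc1, Pgk2 and Ldhc were among the genes with too few counts to test. Gapdh and Gpi1 each passed the threshold in 1 of the alternatives, without WT replicate 1.

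**Figure D3:**
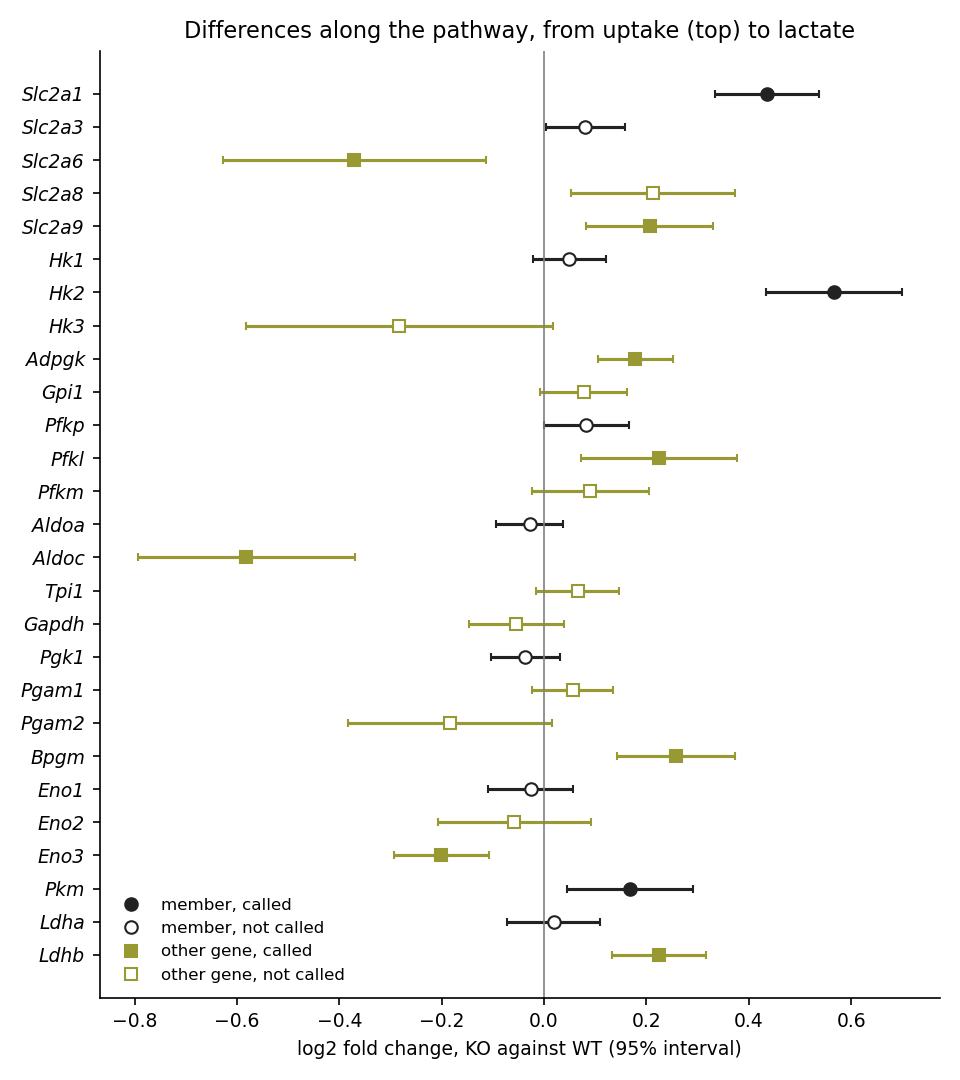
Log2 fold change of KO against WT (horizontal axis, with 95% intervals) for the 10 genes (black circles) and other tested genes of the pathway (olive squares), ordered from uptake to lactate. Filled symbols passed an adjusted p under 0.05, and genes with mean levels under 1 CPM in both groups, such as Slc2a2, Slc2a4, Gapdhs and Pklr, are left out. Slc2a1 at 0.44 and Hk2 at 0.57 stand to the right of the other plotted genes' values.

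Genes that set the rate of glycolysis were mixed. Of 10 tested switches, 2 were called higher and 1 lower, with a median log2 fold change of 0.0051. Txnip, which encodes an inhibitor of glucose uptake that removes GLUT1 from the surface and whose transcript follows glucose metabolites, was 688.5, 663.4 and 692.1 CPM in WT libraries and 865.7, 847.7 and 866.0 CPM in KO libraries. The KO libraries were all above WT, and it was called higher (log2 fold change 0.34, SE 0.031, adjusted p = 4.99e-06). Mlxip, which encodes the glucose-sensing factor MondoA known to drive Txnip and Arrdc4, was called higher by 0.19 (adjusted p = 7.41e-04). Arrdc4, a relative of Txnip under the same factor, was called lower, from 17.4 ± 1.15 to 14.0 ± 0.536 CPM (SD, n = 3), a log2 fold change of -0.31 (adjusted p = 0.00317). Pfkfb3, which makes the activator of phosphofructokinase and was added to these examples after its value was seen, had a log2 fold change of 0.012 (adjusted p = 0.864).

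Among 18 tested genes of lactate and pyruvate handling, 4 were called higher and 1 lower, with a median of 0.066. Slc16a1, which encodes the lactate and pyruvate carrier MCT1, was 31.1, 33.3 and 31.7 CPM in WT libraries and 41.6, 43.0 and 42.8 CPM in KO libraries. The groups did not overlap, and the log2 fold change of 0.41 (SE 0.044, adjusted p = 1.86e-05) stood beside 0.44 for Slc2a1. Pdk2, a kinase that turns off pyruvate dehydrogenase, was called higher (0.18, adjusted p = 0.0329) and Pdhx, a structural part of that complex, lower (-0.20, adjusted p = 0.0298). The call for Pdk2 was lost in 8 of 21 alternatives, among them without WT replicate 1 or 2 or any KO library (adjusted p of up to 0.119). That for Pdhx was lost in 6 of 21, among them without WT replicate 2 or 3 or any KO library (adjusted p of up to 0.124). Pdhb, a catalytic subunit of the same complex, was also called higher (0.14, adjusted p = 0.00914), as was Emb, a partner protein of lactate carriers (0.14, adjusted p = 0.011), and both are named after their values were seen. Pdha1, a catalytic subunit encoded on chromosome X, was not called (0.051, adjusted p = 0.275).

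Branches off glycolysis had slightly negative medians. Of 7 pentose phosphate genes, none was called higher and 1 lower, with a median of -0.069. It was Tkt, the transketolase that links both pathways, at 318.8 ± 11.3 CPM in WT and 275.4 ± 7.27 CPM in KO libraries (SD, n = 3; log2 fold change -0.21, adjusted p = 8.19e-04). Of 19 genes of the serine, hexosamine, glycogen and glycerol branches, 1 was called higher and 2 lower, with a median of -0.042. Shmt2, the mitochondrial serine hydroxymethyltransferase, was higher by 0.17 (adjusted p = 0.00542). Gnpnat1 of the hexosamine branch (-0.34, adjusted p = 0.00971) and Pygb, a glycogen phosphorylase (-0.17, adjusted p = 0.003), were lower, and the call for Gnpnat1 was lost without KO replicate 2 (adjusted p = 0.059).

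Regulators of glycolytic genes gave 6 higher and 2 lower calls among 23 tested, with a median of 0.063. Hif1an, which encodes an oxygen-dependent inhibitor of HIF-1, was 61.6, 59.6 and 57.5 CPM in WT libraries and 75.9, 73.9 and 76.0 CPM in KO libraries (log2 fold change 0.34, adjusted p = 3.27e-05). Vhl, which directs HIF-1α to degradation, was called higher by 0.24 (adjusted p = 0.011), a call lost without WT replicate 2 or KO replicate 1, with adjusted p of up to 0.0734. Irf4, a factor of T cell activation and effector Tregs, was called higher by 0.24 (adjusted p = 2.88e-04). Akt2, a kinase that promotes glucose uptake, had a log2 fold change of 0.095 and was not called (adjusted p = 0.0805) other than without WT replicate 1 (adjusted p = 0.00255).

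The best-known drivers of glycolytic genes, Hif1a and Myc, are given as examples chosen after their values were seen. Hif1a was called higher by 0.17 (adjusted p = 0.00503), with 201.5, 213.9 and 221.5 CPM in WT libraries and 237.7, 237.5 and 240.5 CPM in KO libraries. Myc was called lower by a log2 fold change of -0.18 (adjusted p = 0.00333), with 150.1, 158.7 and 165.3 CPM in WT libraries and 140.2, 137.6 and 139.1 CPM in KO libraries. The libraries did not overlap for either gene, and the directions were opposite.

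Hypoxia genes outside glycolysis moved in both directions, with 3 of 15 called higher, 2 called lower and a median of 0.078. Vegfa, the vascular growth factor, was 3.67, 3.38 and 2.93 CPM in WT libraries and 5.68, 5.82 and 5.75 CPM in KO libraries, a log2 fold change of 0.78 (adjusted p = 6.47e-05). Ndrg1 was called higher by 0.24 (adjusted p = 0.00134). Ddit4, which encodes the mTORC1 inhibitor REDD1, was called lower, from 186.2 ± 15.0 to 144.4 ± 2.44 CPM (SD, n = 3), a log2 fold change of -0.37 (adjusted p = 1.18e-04).

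**Figure D4:**
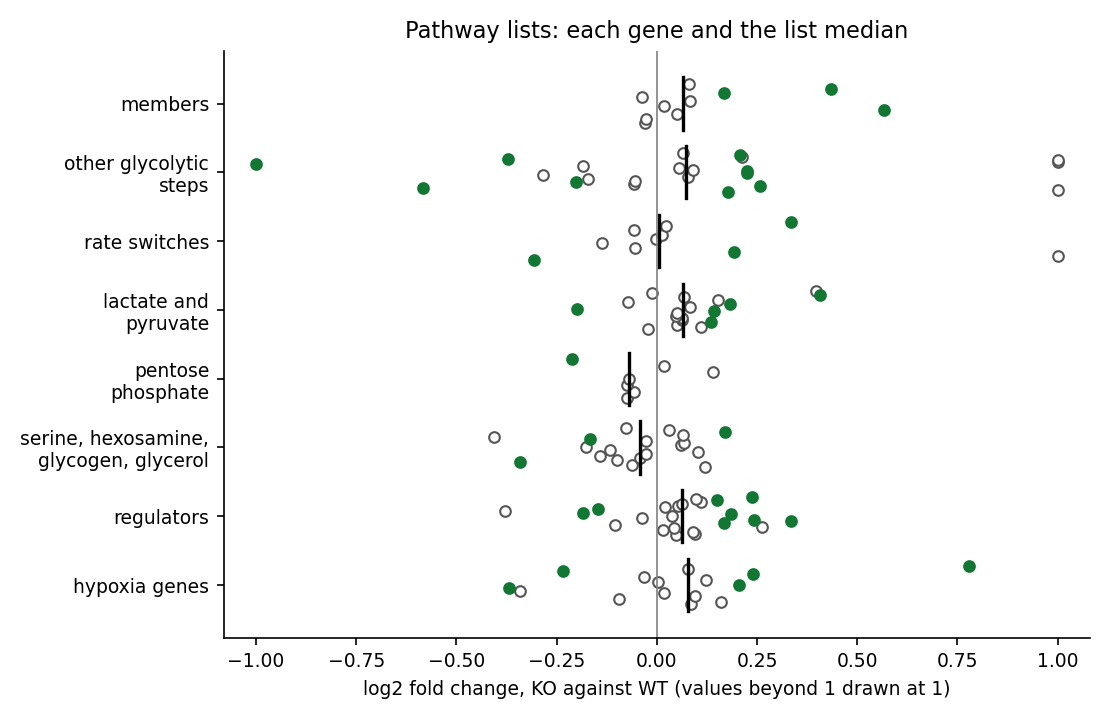
Log2 fold change of KO against WT for each tested gene of 8 lists, from the 10 genes at the top to hypoxia genes at the bottom, with filled points for an adjusted p under 0.05 and a black bar at each list's median. Values beyond 1 in either direction are drawn at 1 or -1. Medians ran from -0.069 for the pentose phosphate branch to 0.078 for hypoxia genes, and called genes of both directions were present in most lists.

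The effect of the processing on the 10 genes is shown in the plot of alternative settings. Slc2a1 kept its call in all 21 alternatives, with log2 fold changes from 0.41 to 0.49 and adjusted p of up to 4.88e-04. Hk2 did so as well, from 0.53 to 0.62 with adjusted p of up to 3.24e-04. Slc2a3, Hk1, Aldoa, Pgk1, Eno1 and Ldha were called in no alternative that could be computed. Pfkp was called without WT replicate 1 only (0.11, adjusted p = 0.0271).

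**Figure D5:**
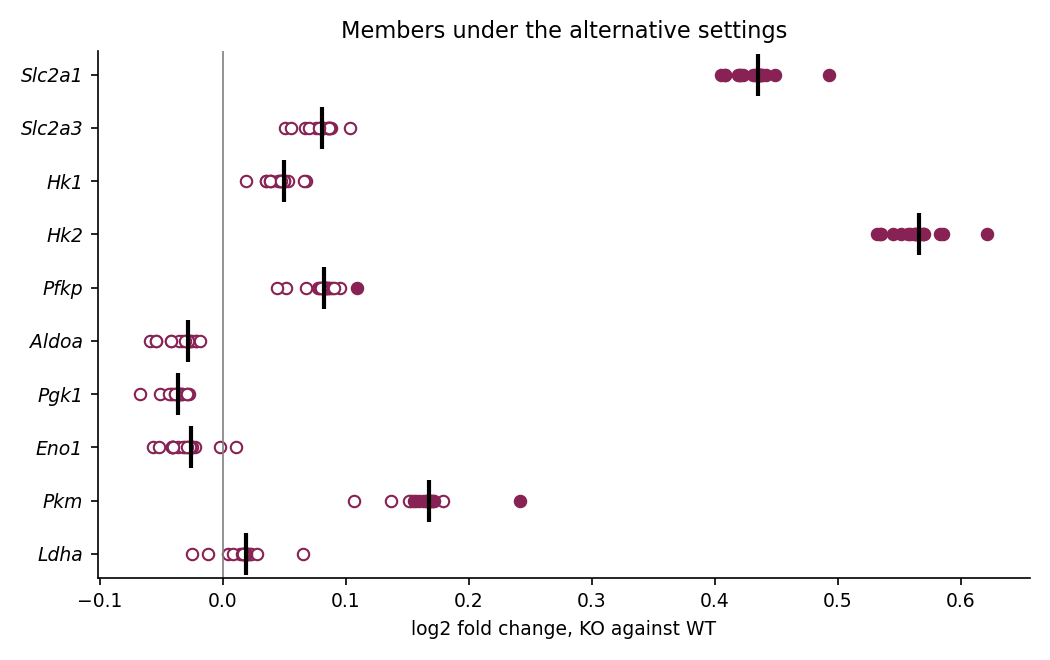
Log2 fold change of KO against WT for each of the 10 genes, with a black bar for the reported fit and circles for the alternative settings, filled where the adjusted p was under 0.05. Slc2a1 (0.41 to 0.49) and Hk2 (0.53 to 0.62) stay filled throughout, while Pkm has open and filled circles between 0.11 and 0.24.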

How the data were processed

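RNA-seq counts of 6 libraries of splenic CD4+CD25+ Tregs were analysed (3 WT, 3 KO, groups and replicate numbers from the sample titles). The values deposited by the authors were raw counts for each gene symbol, and the submitters' processing notes name HISAT2, DESeq2 and build mm10. The counting tool, annotation and strand setting were not given in the sources used here. Counts of 1 and 2 occurred 620 and 1045 times and counts of 4 occurred 2579 times, so counting intervals were not derived from the totals. Of the columns, 0 were unused, and where a symbol was repeated (40 rows), the row with the highest total was used.

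Tests used edgeR 4.0.16 in R 4.3.3 (quasi-likelihood F-test, robust, TMM scaling, filterByExpr) with Benjamini-Hochberg adjustment over 17307 genes, called at 0.05. The pipeline was tested on simulated data. CPM used TMM-scaled totals, and log2 CPM a prior count of 2. Standard errors came from the F statistic and 95% intervals from the t distribution. Levels per kb used the APPRIS principal transcript of GENCODE on GRCm38. Likeness used genes with a mean log2 CPM of at least 5.

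The 10 genes and all lists were chosen with earlier results of these data known. Named genes were Zfp335, Xist, the 10 genes, all tested genes of the other steps and, in each further pathway list, up to 3 called genes with the largest log2 fold change and the gene with the highest mean CPM. Some items that this rule names are not reported here. Alternatives were other scalings and filters, DESeq2 1.42.0, limma-voom (limma 3.58.1), edgeR's legacy method, a replicate block, omission of single libraries, gene families or sex chromosomes, summing near-identical copies and removing a GC trend. Dividing counts by 4, and the GC trend with the block, were added after seeing the data.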

Additional observations from a re-analysis of the deposited data

How the results depend on the processing

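Of 21 alternatives to the reported fit, the call for Pkm was lost with upper-quartile factors (log2 fold change 0.15), library size only (0.14), limma-voom (0.17), edgeR's legacy method (0.17), no filter on low counts (0.17), the GC trend removed (0.15) and counts divided by 4 (0.16, chosen after seeing the data), and ranged from 0.11 to 0.24 when 1 library was left out. Ldha turned to -0.012 with library size only and ranged from -0.026 to 0.065 with 1 library left out. Leaving out 1 library, Eno1 ranged from -0.052 to 0.010 (positive without WT replicate 1), Pfkp from 0.044 to 0.11 (called without WT replicate 1), and Eno2 from -0.11 to 0.0069 (positive without WT replicate 1). The causes were not tested. Leaving out 1 library gave 2740 (without WT replicate 2) to 4996 called genes in place of 4170. The 1.5-fold rule called 1203 genes, of which 62.9% were lower, and 0 of the 10 genes. Library size only gave 61.4% lower calls beside 50.1%, and shifted the median of all genes to -0.035. Over all genes tested, same-numbered libraries correlated by 0.028, 0.0082 and 0.033 in their deviations from the group means. Libraries with different numbers were not compared in this way, so these values do not settle whether the libraries were paired. The fit with the replicate block called 4227 genes and kept the calls of Slc2a1, Hk2 and Pkm, while Slc2a6 lost and Slc2a8 gained a call. Over all alternatives, 2 to 4 of the 10 genes were called higher and 0 lower under the same threshold. GC content was known for 98.7% of genes tested. Low counts limit Pklr (2 to 80 counts a library).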
